A study of Mus musculus with 11 samples.

Results

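The mRNA levels of the 5 NFκB subunits and 5 of their inhibitors were examined in 11 RNA sequencing libraries of mouse hippocampal NSCs (neural stem cells). The subunits were Nfkb1, Nfkb2, Rela, Relb and Rel. The inhibitors were the IκB genes Nfkbia, Nfkbib and Nfkbie, the deubiquitinase gene Tnfaip3 and the atypical IκB gene Bcl3. The 10 genes were chosen by name, for their place in the pathway, with earlier results of these data known. The shares of members called below are therefore descriptions. All 10 were found among the 53801 genes of the tables. On GRCm38, the subunit genes are Nfkb1 (ENSMUSG00000028163.17, chr3:135584655-135691547, - strand), Nfkb2 (ENSMUSG00000025225.14, chr19:46304320-46312385, + strand), Rela (ENSMUSG00000024927.7, chr19:5637483-5648130, + strand), Relb (ENSMUSG00000002983.17, chr7:19606217-19629438, - strand) and Rel (ENSMUSG00000020275.9, chr11:23736847-23770970, - strand). The inhibitor genes are Nfkbia (ENSMUSG00000021025.8, chr12:55489410-55492647, - strand), Nfkbib (ENSMUSG00000030595.15, chr7:28758251-28767512, - strand), Nfkbie (ENSMUSG00000023947.7, chr17:45555703-45563169, + strand), Tnfaip3 (ENSMUSG00000019850.11, chr10:19000910-19015657, - strand) and Bcl3 (ENSMUSG00000053175.17, chr7:19808462-19822770, - strand), and all 10 code for protein. The NSCs were primary cells from the hippocampus of mid-gestation mouse embryos, grown as neurospheres, dissociated and plated. They were kept for 7 days with 1 µM 4HBP, which the study names 4-hydroxybenzophenone and the sample labels name 4-Hydroxybenzoic acid, or with EtOH, the vehicle, as control. Each treatment was given in proliferation medium, which holds EGF and bFGF, or in differentiation medium, which lacks both growth factors, and both media were DMEM/F12 with glutaMAX and B27. There were 3 libraries with 4HBP and 3 with EtOH in proliferation medium, and 3 with 4HBP and 2 with EtOH in differentiation medium. All groups came from the same kind of culture and carried no genetic change. No source used here says whether replicates came from separate embryos or cultures, so p-values measure only the spread between these libraries, which may be technical.

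NFκB is a family of transcription factors that act as dimers of these subunits. Rela, Relb and Rel carry the domain that activates transcription, whereas Nfkb1 and Nfkb2 encode precursors that are cut into DNA-binding subunits. In resting cells, the IκB proteins hold the dimers in the cytoplasm. In the canonical pathway, which runs largely through Rela and Nfkb1, cytokines and microbial products activate the IKK kinases, the IκB proteins are degraded and the dimers enter the nucleus. In the noncanonical pathway, the Nfkb2 precursor is processed and its product pairs with Relb. Several of the genes that NFκB switches on encode its own inhibitors, among them Nfkbia, Nfkbie and Tnfaip3, which end the response. In neural cells, NFκB is known for its part in inflammation and in the response to injury. The measurements here are mRNA levels, and no protein or its location was measured.

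The promoters of these genes are shown because κB sites upstream of the feedback genes are the textbook link in this loop. Whether such sites had a part in the changes with 4HBP was not tested. Sequences are those of RefSeq on GRCm38.p6, written 5′ to 3′ on the strand of the gene, and positions are counted from the start site, which is 0. Matches to the κB consensus of 10 bases on either strand are in capitals, and matches that overlap are joined. The table used here holds promoters of 8 of the 10 genes, without Nfkb1 and Relb. For Nfkb2 (chr19:46304487-46304736, + strand), Nfkbia (chr12:55492648-55492897, - strand), Nfkbie (chr17:45555450-45555699, + strand) and Rela (chr19:5637291-5637540, + strand), the 250 bases before the start site are printed. For Tnfaip3 (chr10:19015511-19015550 and chr10:19015411-19015440, - strand) and Rel (chr11:23771037-23771076, - strand), windows around the matches are printed.
Nfkb2: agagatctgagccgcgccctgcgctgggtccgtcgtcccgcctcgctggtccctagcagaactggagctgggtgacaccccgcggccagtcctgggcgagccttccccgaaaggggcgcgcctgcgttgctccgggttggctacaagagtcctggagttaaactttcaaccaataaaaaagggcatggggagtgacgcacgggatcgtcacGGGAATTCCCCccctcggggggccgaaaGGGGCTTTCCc
Nfkbia: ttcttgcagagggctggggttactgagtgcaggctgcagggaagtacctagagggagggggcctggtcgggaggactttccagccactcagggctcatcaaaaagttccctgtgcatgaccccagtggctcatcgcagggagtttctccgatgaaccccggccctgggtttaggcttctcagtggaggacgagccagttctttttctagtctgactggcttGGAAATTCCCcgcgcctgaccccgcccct
Nfkbie: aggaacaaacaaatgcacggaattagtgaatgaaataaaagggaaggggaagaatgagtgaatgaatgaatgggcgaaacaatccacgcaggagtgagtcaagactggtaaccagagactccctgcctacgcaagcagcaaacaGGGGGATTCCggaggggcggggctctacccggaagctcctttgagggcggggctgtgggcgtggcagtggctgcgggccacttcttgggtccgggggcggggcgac
Tnfaip3 distal: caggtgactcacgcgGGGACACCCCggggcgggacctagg
Tnfaip3 proximal: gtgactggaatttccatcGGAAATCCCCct
Rel: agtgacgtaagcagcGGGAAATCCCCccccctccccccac
Rela: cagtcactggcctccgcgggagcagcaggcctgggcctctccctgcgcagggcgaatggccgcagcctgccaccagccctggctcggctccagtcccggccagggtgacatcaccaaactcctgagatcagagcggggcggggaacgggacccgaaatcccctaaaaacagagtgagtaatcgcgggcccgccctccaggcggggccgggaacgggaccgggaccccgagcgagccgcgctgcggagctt
The table holds promoters of 3 start sites for Nfkb2 and of 2 for Tnfaip3, and those printed are of the one farthest upstream in it. For Nfkb2, Tnfaip3 and Rela, the start site used lies inside the gene bounds given above, which reach farther upstream. At the start site used, Nfkb2 had matches from -39 to -29 and from -11 to -2. Its second start site had matches from -236 to -227 and from 10 to 19, and the third had one from -225 to -216. Matches lay in Nfkbia from -29 to -20, Nfkbie from -106 to -97, Tnfaip3 from -125 to -116 and from -12 to -3, and Rel from -92 to -82. Bcl3 had a match from 2 to 11, just past its start site. Rela and Nfkbib had none in the 300 bases searched, from 250 before to 50 after the start. A κB match was thus found for 6 of 8 members, against 9.55% of the 27025 genes in the table. By promoter, 8 of 11 of the members matched, against 8.46% of all 32851 of this length. The members include known NFκB targets, so these shares follow in part from the choice of genes and are only a description. The core of the amino acid response element, TGATGNAA, was searched on both strands as well. It was found in 3.97% of all promoters and, among the members, only in that of a second start site of Tnfaip3, from -22 to -15. A match describes the letters in these windows and is no evidence that a factor binds there.

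The libraries held between 20822921 and 23438463 expected counts. Expected counts are fragments as RSEM divides them among genes, and CPM scales them to the same total in every library. A count of 3, taken as the smallest detectable amount, was worth between 0.128 and 0.144 CPM, and this floor covers counting error only. In proliferation medium, 4HBP replicate 3 stood apart from replicates 1 and 2, with a mean chi-square per gene of 25.57 and 22.98 against 5.62 between those. Replicates varied more in proliferation medium (biological coefficient of variation 0.117) than in differentiation medium (0.0368), so that each medium was fitted with its own spread. All 10 NSC markers examined were above 3 counts in at least 1 library of every group, among them Slc1a3 at 2830 ± 70.4 CPM, Vim at 2680 ± 378 CPM and Fabp7 at 965 ± 64.0 CPM (SD, n = 3) with EtOH in proliferation medium. Of 14 microglia and macrophage markers, Tmem119, Aif1, Itgam, Ptprc and Spi1 were at or under 3 counts in all 11 libraries. Others were detected, among them Cd68 at 2.75 ± 0.87 CPM and P2ry12 at 2.5 ± 0.839 CPM (SD, n = 3) with EtOH in proliferation medium. Exons of 3 members share bases with annotated genes on the opposite strand, with 531 bases of Nfkb2 (AC114539.1), 314 bases of Nfkbib (Ccer2) and 161 bases of Bcl3 (Gm16175) as the longest, and whether counting used the strand is not given in the sources used here.

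In the EtOH controls in proliferation medium, Rela was the most abundant member per length of transcript. Levels are compared between genes in TPM (which, unlike CPM, are also normalized for the length of the transcripts). Rela, which encodes the main activating subunit, had 37.0 ± 1.23 TPM (SD, n = 3). Nfkbib, which encodes IκBβ, had 33.6 ± 2.37 TPM. Nfkbia, which encodes IκBα, followed at 13.2 ± 1.17 TPM. The lowest were Rel at 1.3 ± 0.111 TPM and Tnfaip3 at 0.223 ± 0.110 TPM. Between these lay Nfkb1 (10.1 TPM), Nfkb2 (7.44 TPM), Relb (5.25 TPM), Bcl3 (3.15 TPM) and Nfkbie (2.29 TPM). Of the neighbours in this order, only Bcl3 and Nfkbie had libraries that overlapped. With EtOH in differentiation medium, Nfkbib came first at 80.5 TPM (79.45 and 81.57), Nfkbia next at 35.2 ± 4.56 TPM (SD, n = 2) and Rela at 31.0 ± 0.502 TPM, and Bcl3 came last at 0.155 TPM. There, only Nfkb2 (6.0 TPM) and Relb (5.89 TPM) overlapped as neighbours. The TPM of Nfkbia count both of its transcripts. Its coding transcript alone was estimated at 25.6 and 24.1 TPM in these EtOH libraries, below Rela at 30.69 and 31.4 TPM. With 4HBP in proliferation medium, Rela (42.6 TPM) and Nfkbib (38.7 TPM) overlapped, as did Nfkb2 (12 TPM), Nfkb1 (11.4 TPM) and Relb (9.49 TPM) from each to the next. With 4HBP in differentiation medium, the order began with Nfkbib at 76.2 TPM and ended with Tnfaip3 (0.50 TPM) and Bcl3 (0.37 TPM).

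**Figure D1:**
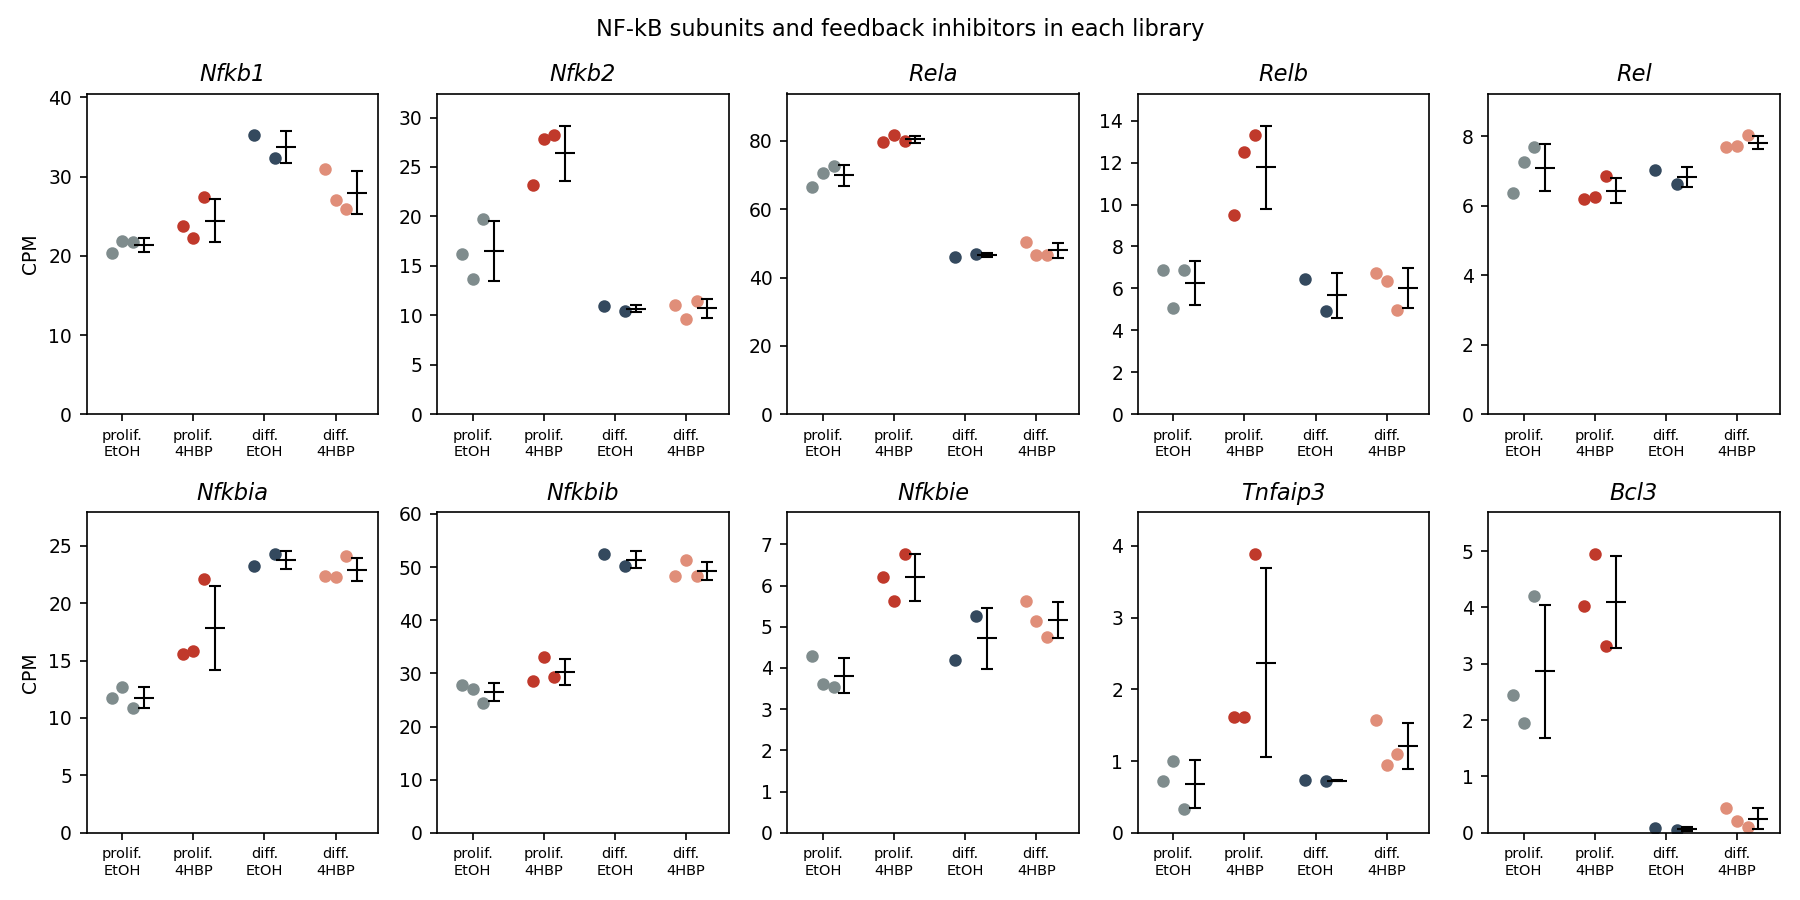
CPM of each of the 10 genes (y axis, starting at 0) in every library, by medium and treatment (x axis). Points are libraries and the bar beside them is the mean with the SD. The 4HBP points lie above the EtOH points in proliferation medium for Nfkb2, Rela, Relb, Nfkbia, Nfkbib, Nfkbie and Tnfaip3, and Bcl3 is near 0 in differentiation medium.

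The question of the first comparison was whether 4HBP changed the mRNA of the pathway's own components in proliferating NSCs. Relb, Nfkb2, Nfkbie and Nfkbia rose with 4HBP, by 1.48- to 1.84-fold, and no member fell. These are the subunits of the noncanonical pathway and the genes of 2 IκB proteins. With edgeR's quasi-likelihood test and Benjamini-Hochberg adjustment over all genes, 4 of 10 members were called, all higher, whereas 7.43% of the 14449 genes tested were called and 3.74% were called higher. All 10 members had passed the filter on low counts. The 10 members had a median log2 fold change of 0.52, against 0.001 over all genes tested. In a mixed culture, fewer cells of a type and less RNA per cell cannot be told apart.

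Relb, the activating subunit that pairs with the product of Nfkb2, had 9.51, 12.5 and 13.3 CPM in the 4HBP libraries and 6.88, 5.05 and 6.88 CPM in the EtOH libraries. The lowest 4HBP library thus lay above the highest EtOH library. Relb was 1.84-fold higher (95% confidence interval 1.41 to 2.39), a log2 fold change of 0.88 ± 0.17 (SE, edgeR adjusted p = 0.0196). Nfkb2, the precursor gene of the noncanonical pathway, had 23.2, 27.8 and 28.2 CPM with 4HBP and 16.2, 13.7 and 19.7 CPM with EtOH. Its groups did not overlap either, and it was 1.56-fold higher (1.25 to 1.94), a log2 fold change of 0.64 ± 0.14 (SE, edgeR adjusted p = 0.0300).

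Among the inhibitors, Nfkbie, which encodes IκBε, had 6.20, 5.62 and 6.77 CPM with 4HBP and 4.30, 3.62 and 3.53 CPM with EtOH. The groups were apart, and the gene was 1.59-fold higher (1.24 to 2.03), a log2 fold change of 0.66 ± 0.16 (SE, edgeR adjusted p = 0.0384). Nfkbia, the classical feedback inhibitor, had 15.6, 15.8 and 22.1 CPM with 4HBP and 11.7, 12.7 and 10.9 CPM with EtOH. The highest value was that of 4HBP replicate 3, and the other 4HBP libraries were still above every EtOH library. It was 1.48-fold higher (1.18 to 1.85), a log2 fold change of 0.56 ± 0.14 (SE, edgeR adjusted p = 0.0467).

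Tnfaip3, which encodes the ubiquitin-editing enzyme that restrains signaling upstream of the IKK kinases, had the largest fold change of the members and the lowest counts of those above. It had 1.61, 1.62 and 3.89 CPM with 4HBP and 0.717, 1.00 and 0.334 CPM with EtOH, from 34, 34 and 81 counts against 15, 21 and 7. Its log2 fold change of 1.74 ± 0.47 (SE) had a 95% confidence interval from 0.68 to 2.80 and missed the threshold (edgeR adjusted p = 0.0547, with 0.00936 to 0.17 over the alternatives). Without 4HBP replicate 3, the log2 fold change was 1.23.

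The other 5 members did not pass. Rela had 79.6, 81.6 and 80.0 CPM with 4HBP and 66.4, 70.6 and 72.6 CPM with EtOH, with no overlap but a log2 fold change of only 0.17 ± 0.07 (SE, edgeR adjusted p = 0.179). Nfkbib ranged from 28.5 to 33.0 CPM with 4HBP and from 24.5 to 27.8 CPM with EtOH (log2 fold change 0.16 ± 0.10). Nfkb1, the precursor gene of the canonical pathway, ranged from 22.2 to 27.4 CPM with 4HBP and from 20.3 to 21.9 CPM with EtOH (0.16 ± 0.10). Bcl3, an IκB family protein that acts in the nucleus, overlapped between 3.31 to 4.95 CPM and 1.95 to 4.20 CPM (0.48 ± 0.30). Rel was the only member with a value below 0, at 6.20 to 6.86 CPM against 6.35 to 7.69 CPM (-0.18 ± 0.14). In all, the groups did not overlap for 7 of 10 members, all higher with 4HBP, against 31.3% of all genes tested in either direction.

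The study's own thresholds, an unadjusted p under 0.05 from limma on log2(CPM+1) with an absolute log2 fold change over 0.58, were passed by 3 members, namely Relb (0.81), Tnfaip3 (0.96) and Nfkb2 (0.65), and by 2.12% of the 27295 genes tested. Nfkbie (0.58 when rounded) and Nfkbia (0.55) lay just under the limit on the fold change. The calls of the count test depended on single libraries. Without 4HBP replicate 2, EtOH replicate 1 or EtOH replicate 2, 0 of 10 members were called. Without 4HBP replicate 1, 4HBP replicate 3 or EtOH replicate 3, Relb and Nfkb2 were called, and with a replicate block these 2 members were called as well. Over all alternatives, the log2 fold change lay between 0.75 and 0.99 for Relb, 0.52 and 0.79 for Nfkb2, 0.62 and 0.75 for Nfkbie and 0.41 and 0.64 for Nfkbia. The adjusted p of these members ranged from 4.1e-04 to 0.0877, 0.00138 to 0.117, 0.00884 to 0.151 and 0.00617 to 0.155, in that order.

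**Figure D2:**
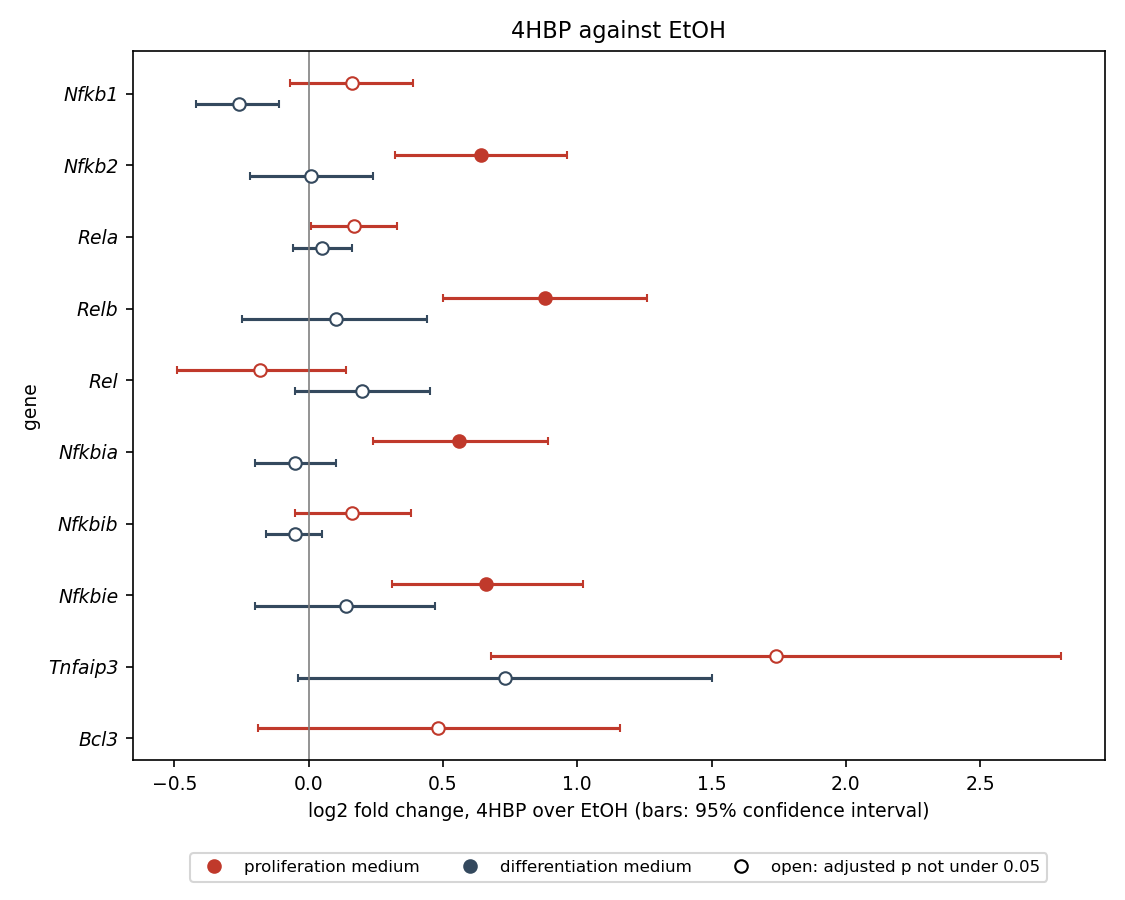
Log2 fold change of 4HBP over EtOH (x axis) for each member (y axis) in proliferation and differentiation medium, with the 95% confidence interval. Filled points have an edgeR adjusted p under 0.05, and these are Nfkb2, Relb, Nfkbia and Nfkbie in proliferation medium. Bcl3 was not tested in differentiation medium.

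Cell type markers were summed per library beside these changes. In proliferation medium, 7 astrocyte markers summed to 3670 to 4500 CPM with 4HBP and to 5210 to 6440 CPM with EtOH, without overlap. Gfap, a filament of astrocytes, had 1470 ± 163 against 2310 ± 227 CPM, and Gja1 had 253 ± 40.9 against 445 ± 76.1 CPM (SD, n = 3). Slc1a2 overlapped, at 543 to 699 CPM with 4HBP and 657 to 805 CPM with EtOH. The part of the astrocyte markers' shift in the members' changes was not tested. The 9 oligodendrocyte lineage markers summed to 2230 to 3550 and 3360 to 4040 CPM, the 10 NSC markers to 7450 to 8010 and 7410 to 8320 CPM, and the 9 neuron markers to 918 to 973 and 930 to 1030 CPM. The 14 microglia and macrophage markers summed to 5.05 to 6.72 CPM with 4HBP and to 4.24 to 6.50 CPM with EtOH. Of these, 5 were at or under 3 counts in every library. Cd68 had 3.38 ± 0.651 against 2.75 ± 0.87 CPM and P2ry12 2.08 ± 0.655 against 2.5 ± 0.839 CPM (SD, n = 3). The 7 endothelial markers summed to 12.6 to 20.5 and 12.3 to 20.6 CPM, and the 6 pericyte and fibroblast markers to 2.27 to 3.17 and 2.72 to 3.71 CPM.

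Nfkbia was also looked at by transcript, a choice made after its values were seen. The tables list 2 transcripts of this gene, a coding transcript of 1578 bases (Nfkbia-201) and a retained-intron transcript of 701 bases (Nfkbia-202). The deposited length of a gene is the mean over its transcripts weighted by their estimated abundance, so that the share of each of 2 transcripts follows from it. This length was 1190.26, 1197.49 and 1250.19 bases with 4HBP and 1420.39, 1355.19 and 1378.35 bases with EtOH in proliferation medium. It was shorter in every 4HBP library, which was the case for 3.48% of all genes tested. That share also counts genes whose length is the same in every library, which cannot meet the criterion. Nfkbib met it as well, by a small margin (1243.0 to 1244.67 against 1244.97 to 1250.01 bases). From the length of Nfkbia, its retained-intron transcript made up 44.2%, 43.4% and 37.4% of the molecules with 4HBP and 18.0%, 25.4% and 22.8% with EtOH. The retained-intron transcript had 9.64 ± 0.921 TPM with 4HBP against 2.93 ± 0.701 TPM with EtOH (SD, n = 3), 3.29 times as much. The coding transcript had 11.5, 11.9 and 18.0 TPM against 10.5, 10.8 and 9.47 TPM, 1.35 times as much, and the highest of these values was again that of replicate 3. In differentiation medium, the shares overlapped, at 28.1%, 47.3% and 37.3% with 4HBP and 20.0% and 37.2% with EtOH. These shares rest on how RSEM divided fragments between the transcripts, their error is not known here, and no test was made of them.

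**Figure D3:**
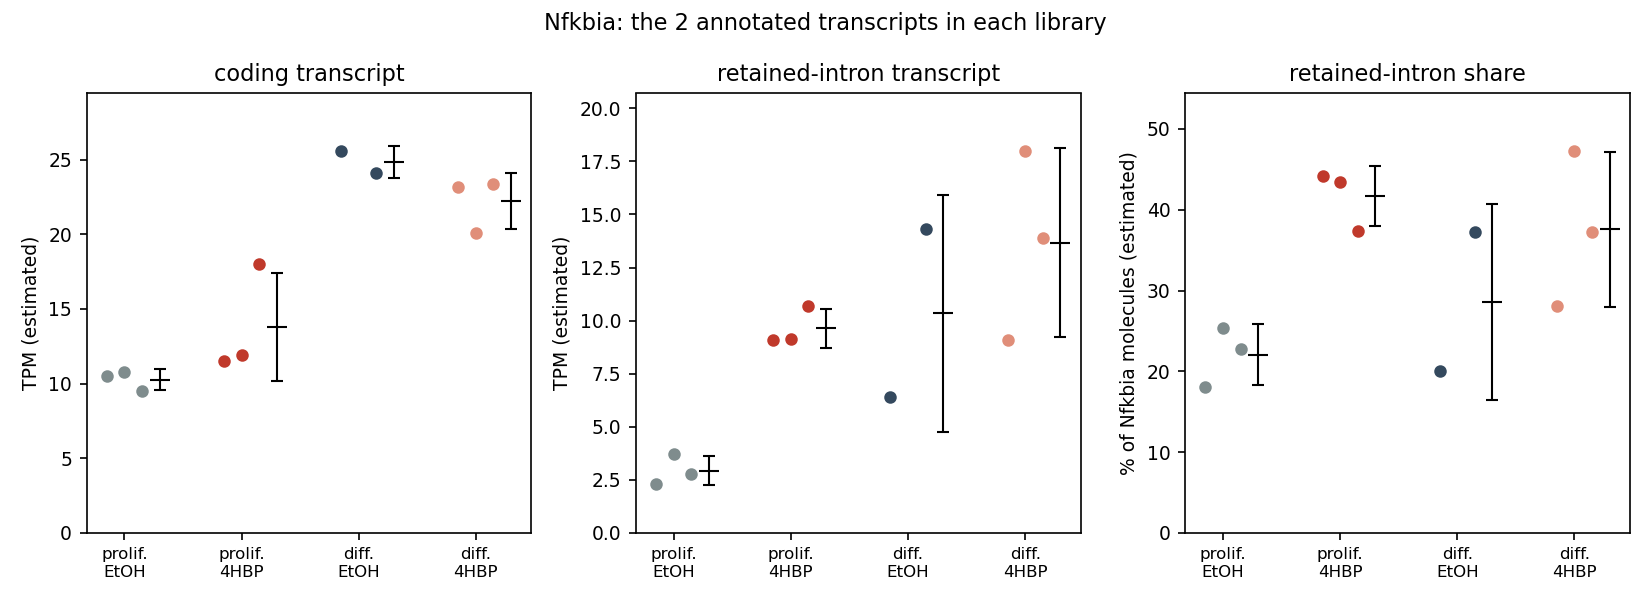
Estimated TPM of the coding and the retained-intron transcript of Nfkbia and the share of the latter in % (y axes, starting at 0) in every library by group (x axes), with the mean and SD beside the points. In proliferation medium, the share is 37.4% to 44.2% with 4HBP and 18.0% to 25.4% with EtOH.

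Around the members, 108 other genes of the pathway were examined in 5 lists, of which 78 passed the filter on low counts in proliferation medium. With 4HBP, 13 of these rose and 0 fell (edgeR adjusted p under 0.05), with a median log2 fold change of 0.11 against 0.001 over all genes, of which 3.74% were called higher and 7.43% in either direction. By list, 0 of 13 IKK kinases and activators passed, as did 3 of 23 adaptors and ubiquitin ligases, 1 of 17 further inhibitors and deubiquitinases, 2 of 10 upstream cytokines and receptors and 8 of 19 NFκB target genes, all higher, to be read against the same 3.74%. The lists share some genes, and Nfkbiz stands in 2 of them. Of 36 listed target genes, 19 passed the filter on low counts, as did 10 of 21 cytokines and receptors. Cxcl1, Ccl2, Cxcl10 and Icam1 were low in EtOH and passed it through the 4HBP libraries. The counts of 8 of 19 and 13 of 78, and the medians that go with them, thus depend in part on the 4HBP values themselves. They are only descriptions, of lists that were also chosen with earlier results of these data known. The median log2 fold change was 0.54 for the target genes, 0.45 for the cytokines and receptors and between 0.01 and 0.07 for the other 3 lists. The count of 13 fell to 1, Nfkbiz, without EtOH replicate 1 and likewise without EtOH replicate 2, was 7 without 4HBP replicate 2 and was 16 without 4HBP replicate 3.

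Upstream of the subunits, Ripk2, the kinase downstream of NOD receptors, had 6.34, 7.04 and 11.2 CPM with 4HBP against 4.06, 3.28 and 3.06 CPM with EtOH, a log2 fold change of 1.20 ± 0.23 (SE, edgeR adjusted p = 0.0181). Myd88, the adaptor of Toll-like and interleukin-1 receptors, had 10.3 ± 1.96 against 5.69 ± 1.35 CPM (SD, n = 3), 1.77-fold higher. Rbck1, a part of the linear ubiquitin ligase complex, had 53.1 ± 8.98 against 38.3 ± 1.40 CPM, 1.35-fold higher. Of the receptors, Il1rap, the accessory chain of the interleukin-1 receptor, had 189 ± 5.29 against 124 ± 26.7 CPM, and Ltbr, the lymphotoxin β receptor that drives the noncanonical pathway, had 62.4 ± 4.63 against 41.6 ± 5.01 CPM. Ltbr and Il1rap were 1.46- and 1.49-fold higher. The edgeR adjusted p was 0.0375 for Myd88, 0.0405 for Rbck1, 0.0384 for Il1rap and 0.0145 for Ltbr. Neither Ripk2 nor these genes were called without EtOH replicate 1 or without EtOH replicate 2. Without 4HBP replicate 2, only Ripk2 of these was called. Rbck1 was also not called without EtOH replicate 3, nor Il1rap without 4HBP replicate 1.

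Nfkbiz, an inducible nuclear member of the IκB family, had 32.5, 32.3 and 48.1 CPM with 4HBP against 14.6, 12.2 and 17.0 CPM with EtOH. Its log2 fold change of 1.33 ± 0.17 (SE, edgeR adjusted p = 0.00525) was larger than that of any member except Tnfaip3. The target genes that were named by size were low in EtOH. Cxcl1, a chemokine gene, had 1.56, 2.05 and 7.29 CPM with 4HBP and 0 in all 3 EtOH libraries, and was at least 25.4-fold higher against a floor of 3 counts per library. Ccl2, another chemokine gene, had 93 counts in the 4HBP libraries together and 4 in the EtOH libraries, a ratio of 23.2 (exact 95% interval 8.77 to 87.0, counting error only). Cxcl10 had 2.65, 2.67 and 12 CPM against 0.382, 0.428 and 0.573 CPM, and Icam1, an adhesion molecule gene, had 1.37, 0.842 and 1.97 CPM against 0.191, 0.190 and 0.382 CPM. Icam1 was 5.25-fold higher (2.55 to 10.8) and Cxcl10 11.9-fold (4.23 to 33.7). For Cxcl1, Ccl2 and Cxcl10, replicate 3 had the highest value of the 4HBP libraries. Without it, Cxcl1 was at least 12.6-fold higher, the ratio of Ccl2 was 12.3 (4.38 to 47.8) and Cxcl10 was 5.68-fold higher, and all 3 were still called. These 3 genes and Icam1 were not called without EtOH replicate 1 or without EtOH replicate 2 (edgeR adjusted p from 0.0596 to 0.11). The ratio of Ccl2 was 61.9 (10.8 to 2470) without EtOH replicate 3, which held 3 of its 4 EtOH counts.

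In differentiation medium, no member passed the test for 4HBP against EtOH. With edgeR, 0 of the 9 members tested were called, against 2.55% of 15484 genes, and 1 member had an unadjusted p under 0.05 (15.9% of all genes). DESeq2 also called 0 members, and the study's thresholds were passed by 0 of 10 members and 0.18% of 27295 genes. The median log2 fold change of the 9 members was 0.05, against -0.001 over all genes tested. For the members that rose in proliferation medium, the 95% confidence intervals of the log2 fold change were -0.25 to 0.44 for Relb, -0.22 to 0.24 for Nfkb2, -0.20 to 0.47 for Nfkbie and -0.20 to 0.10 for Nfkbia.

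The member with the unadjusted p under 0.05 was Nfkb1. It had 31.0, 27.0 and 25.9 CPM with 4HBP and 35.2 and 32.3 CPM with EtOH. All its 4HBP values were thus below the EtOH values, and the log2 fold change was -0.26 ± 0.07 (SE, edgeR adjusted p = 0.0756, with 0.00799 to 1 over the alternatives). It was called without the filter on low counts, with the replicate block and without 4HBP replicate 1 (-0.34). Tnfaip3 had 1.57, 0.949 and 1.10 CPM with 4HBP and 0.730 and 0.725 CPM with EtOH, which did not overlap (log2 fold change 0.73 ± 0.36, edgeR adjusted p = 0.348). Rel had 7.69, 7.72 and 8.02 CPM against 7.02 and 6.61 CPM (0.20 ± 0.12), also without overlap. The groups were apart for 3 of the 9 members tested and for 32.9% of all genes. The log2 fold changes of Nfkbia (-0.05 ± 0.07), Nfkbib (-0.05 ± 0.05) and Rela (0.05 ± 0.05) were near 0. Bcl3 failed the filter, with 10, 5 and 2 counts with 4HBP and 2 and 1 with EtOH, a ratio of 3.87 (exact 95% interval 1.12 to 20.6, counting error only).

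The difference between the effects of 4HBP in the 2 media was tested in a fit of all 11 libraries. No member passed with edgeR (0 of 10, against 4.49% of 15920 genes), and 6 members had an unadjusted p under 0.05 (19.9% of all genes). DESeq2 called Nfkbia, voom with weights by medium called Nfkbia and Nfkb2, and edgeR without the filter called these and Relb. Nfkbia was also called without 4HBP replicate 1, 2 or 3 of proliferation medium (0.67, 0.67 and 0.45), and Nfkb2 without EtOH replicate 3 of that medium (0.77). The lowest adjusted p was that of Nfkbia, whose log2 fold change was higher in proliferation medium by 0.60 (95% confidence interval 0.24 to 0.97, edgeR adjusted p = 0.0656, with 0.00694 to 0.224 over the alternatives). For Nfkb1, the difference was 0.42 (0.14 to 0.70), for Nfkb2 0.62 (0.20 to 1.03) and for Relb 0.77 (0.21 to 1.34), with edgeR adjusted p of 0.0901, 0.0925 and 0.121. Of the 83 other pathway genes tested, 6 passed, all with a higher effect in proliferation medium (4.49% of all genes in either direction). Some of the 83, such as Cxcl1 and Ccl2, passed the filter through the 4HBP libraries of that medium, so this count is only a description.

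More genes differed between the media than between the treatments. With EtOH, 6 of 10 members changed between the media, against 61.4% of all 15920 genes tested, so that the share of members was close to that of all genes. Nfkbia, Nfkbib and Nfkb1 were higher in differentiation medium (30.8% of all genes were called higher), and Rela, Nfkb2 and Bcl3 were lower (30.6%). The median log2 fold change of the members was -0.07, against 0.026 over all genes.

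Nfkbia had 23.2 and 24.3 CPM in differentiation medium and 10.9 to 12.7 CPM in proliferation medium, 1.90-fold higher (log2 fold change 0.93 ± 0.13, edgeR adjusted p = 3.2e-05). Nfkbib had 52.5 and 50.3 CPM against 24.5 to 27.8 CPM, 1.83-fold higher (0.87 ± 0.08, edgeR adjusted p = 8.9e-07). Nfkb1 had 35.2 and 32.3 CPM against 20.3 to 21.9 CPM, 1.49-fold higher (0.57 ± 0.09, edgeR adjusted p = 1.7e-04). None of these groups overlapped. Rela, in contrast, had 46.1 and 46.9 CPM against 66.4 to 72.6 CPM, 1.60-fold lower (-0.67 ± 0.07, edgeR adjusted p = 2.4e-06). Nfkb2 had 10.9 and 10.4 CPM against 13.7 to 19.7 CPM, 1.65-fold lower (-0.72 ± 0.15, edgeR adjusted p = 8.2e-04). Bcl3 had 180 counts in the 3 proliferation libraries and 3 counts in the 2 differentiation libraries, a ratio of 43.3 between the levels (exact 95% interval 14.6 to 212, counting error only). The log2 fold changes of Relb (-0.23 ± 0.20), Rel (-0.14 ± 0.13), Nfkbie (0.22 ± 0.17) and Tnfaip3 (0.00 ± 0.53) did not pass.

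Cell type markers moved with the medium as well. With EtOH, the NSC markers summed to 7410 to 8320 CPM in proliferation medium and 4410 to 4420 CPM in differentiation medium, and the endothelial markers to 12.3 to 20.6 and 3.92 to 4.14 CPM. The sums were higher in differentiation medium for the astrocyte markers (5210 to 6440 against 8010 to 8130 CPM), the oligodendrocyte lineage markers (3360 to 4040 against 8080 to 8550 CPM) and the pericyte and fibroblast markers (2.72 to 3.71 against 29.7 to 32.5 CPM). Gfap went the other way, from 2310 ± 227 CPM (SD, n = 3) in proliferation to 1590 ± 214 CPM (n = 2) in differentiation medium. Slc1a2 (736 against 2710 CPM) and Gja1 (445 against 1290 CPM) were higher there. Most of the pericyte and fibroblast sum in differentiation medium was Pdgfrb (0.699 against 29.3 CPM), and Rgs5 was lower there (2.05 against 0.689 CPM). The sums overlapped for the neuron markers, at 930 to 1030 and 945 to 967 CPM. Of these, Dcx (109 to 129 against 172 to 189 CPM) and Tubb3 (42.0 to 51.5 against 61.8 to 66.8 CPM) were higher in differentiation medium, and Map2 (754 to 855 against 683 to 689 CPM) was lower. The sums of the microglia and macrophage markers were 4.24 to 6.50 and 3.50 to 4.19 CPM. With 4HBP, the sums in differentiation medium were 4280 to 4310 CPM for the NSC, 7810 to 8130 CPM for the astrocyte and 8230 to 8360 CPM for the oligodendrocyte lineage markers. The part of these shifts in the members' changes between media was not tested.

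With 4HBP, 7 of 10 members differed between the media, against 67.2% of all genes tested. Nfkbib and Nfkbia were higher in differentiation medium (33.3% of all genes), and Relb, Nfkb2, Rela, Tnfaip3 and Bcl3 were lower (33.8%). Relb had 6.75, 6.34 and 4.95 CPM in differentiation medium against 9.51, 12.5 and 13.3 CPM in proliferation medium, 2.01-fold lower (log2 fold change -1.01 ± 0.17, edgeR adjusted p = 1.6e-04). Nfkb2 had 11, 9.66 and 11.5 CPM against 23.2, 27.8 and 28.2 CPM, 2.53-fold lower (-1.34 ± 0.13, edgeR adjusted p = 9.0e-07). The log2 fold change of Nfkbia was 0.33 ± 0.11 (edgeR adjusted p = 0.0200, with 2.5e-04 to 0.0819 over the alternatives), and that of Tnfaip3 was -1.0 ± 0.39 (edgeR adjusted p = 0.0370, with 0.00362 to 0.24 over the alternatives). Nfkbia was not called without 4HBP replicate 1 or 2 of proliferation medium (0.25 and 0.27) or 4HBP replicate 3 of differentiation medium (0.29). Tnfaip3 was not called without 4HBP replicate 3 of proliferation medium (-0.49), without 4HBP replicate 2 or 3 (-0.85 and -0.95) or either EtOH library (both -0.99) of differentiation medium, or with the replicate block (-0.97). Bcl3 ranged from 3.31 to 4.95 CPM in proliferation medium and from 0.096 to 0.447 CPM in differentiation medium.

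**Figure D4:**
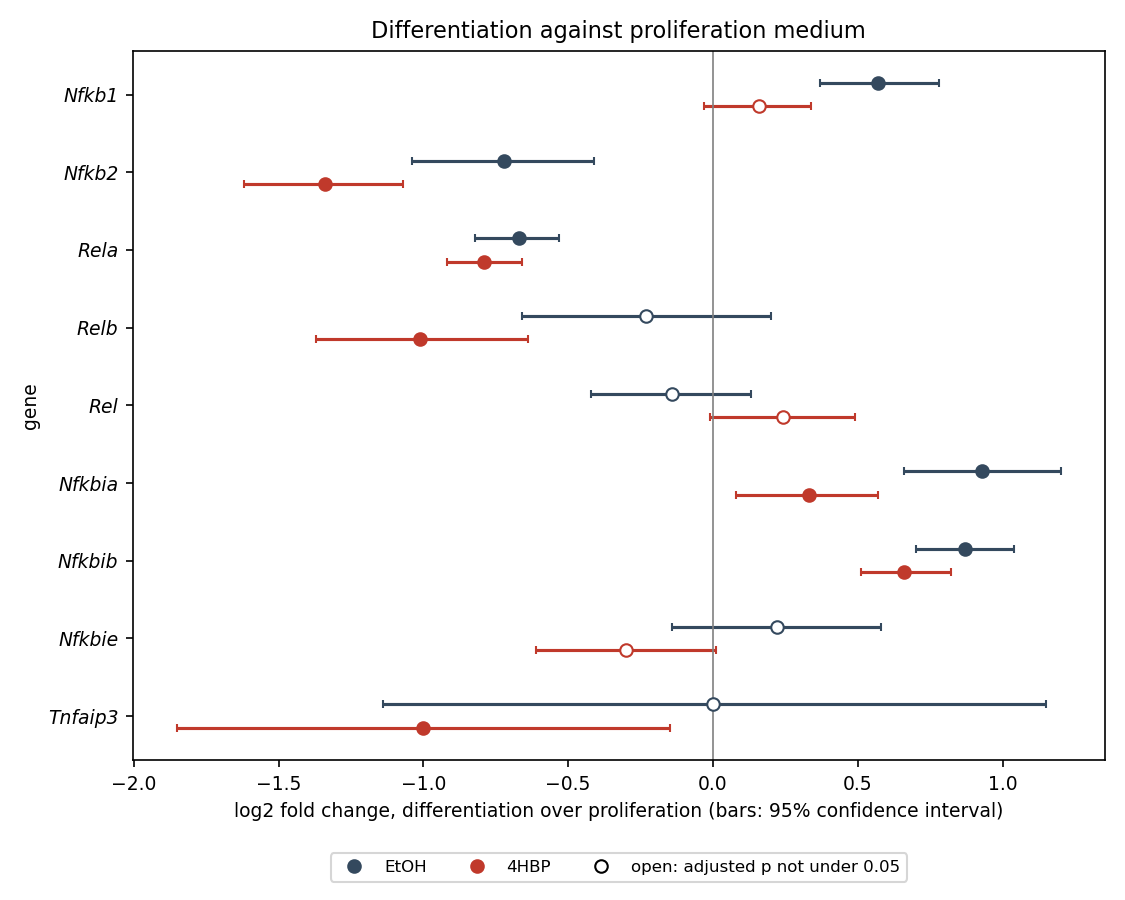
Log2 fold change of differentiation over proliferation medium (x axis) for 9 members (y axis), with EtOH and with 4HBP, and the 95% confidence interval. Filled points have an edgeR adjusted p under 0.05. Nfkbia and Nfkbib lie right of 0 and Rela and Nfkb2 left of 0 under both treatments, and Bcl3 is left out because a group was at or under 3 counts.

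Per length of transcript, these levels add up to a different makeup in each group. The 5 subunits together had 58.5 to 64.3 TPM with EtOH and 71.11 to 81.78 TPM with 4HBP in proliferation medium, without overlap. In differentiation medium the sums were 62.71 to 67.23 TPM with EtOH and 58.88 to 65.42 TPM with 4HBP, which overlapped. Relb made up 6.65% to 9.94% of the sum with EtOH and 11.1% to 13.4% with 4HBP in proliferation medium, and Nfkb2 made up 10.4% to 13.7% and 14.5% to 16.3%. Rela held 58.9% to 63.5% with EtOH and 53.0% to 58.0% with 4HBP. Nfkb1 rose from 15.8% to 17.2% in proliferation medium to 30.9% to 32.0% in differentiation medium with EtOH, and had 25.3% to 26.8% there with 4HBP. The 3 IκB genes together had 0.705 to 0.871 TPM per TPM of subunits with EtOH and 0.843 to 0.869 with 4HBP in proliferation medium, which overlapped. In differentiation medium, the ratio was 1.74 to 1.94 with EtOH and 1.69 to 1.97 with 4HBP. The IκB sums include the retained-intron transcript of Nfkbia. These are descriptions of mRNA, with no test.

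**Figure D5:**
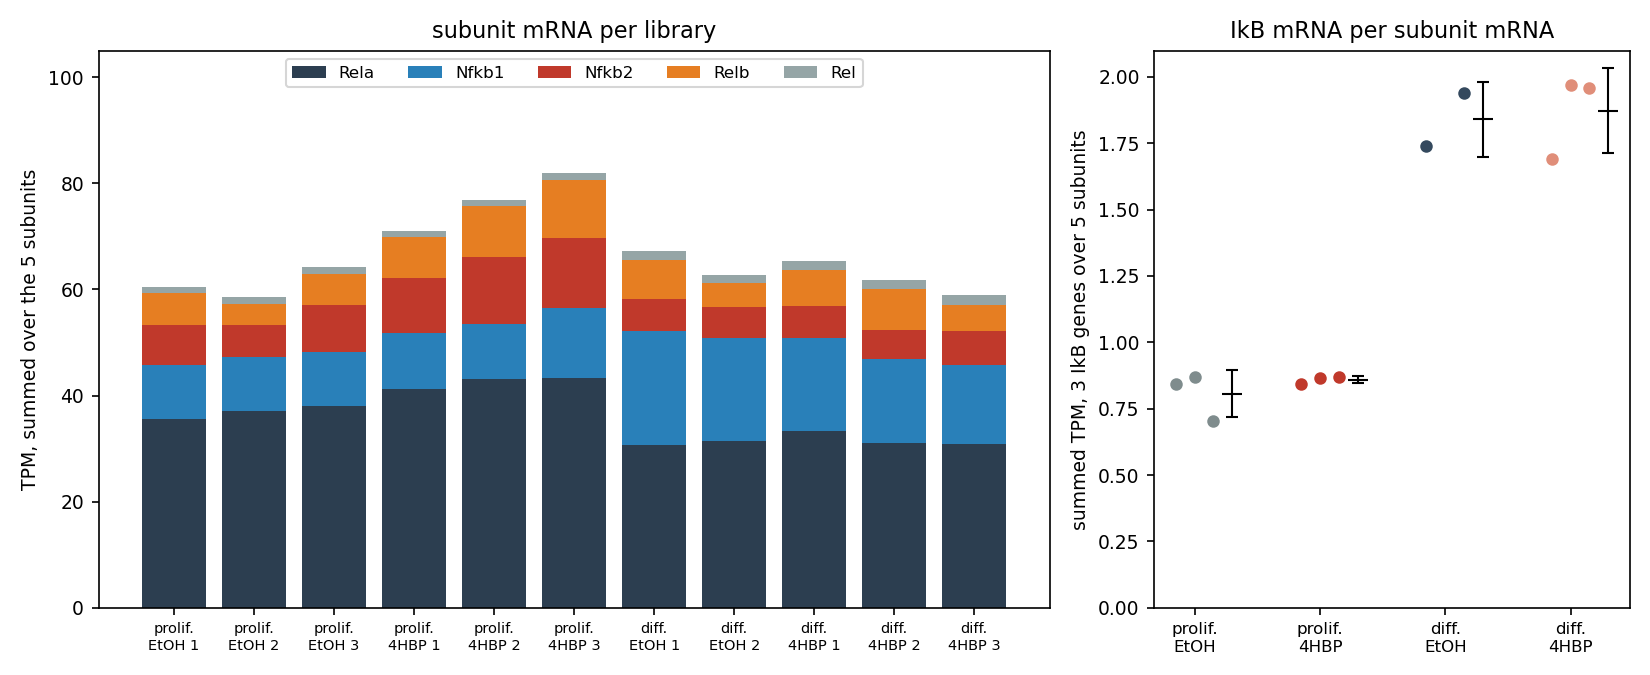
Left, TPM of the 5 subunits stacked per library (y axis, starting at 0; x axis, libraries by group). Right, the summed TPM of Nfkbia, Nfkbib and Nfkbie divided by that of the subunits, with the mean and SD beside the points. The subunit sum is highest in the 4HBP libraries of proliferation medium (71.11 to 81.78 TPM), and the ratio is below 1 in proliferation medium and at least 1.69 in differentiation medium.

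Among the other pathway genes, the media with EtOH differed for 46 of 83 genes tested, of which 21 were higher and 25 lower in differentiation medium (30.8% and 30.6% of all genes). Traf1, an adaptor gene, had 8.76 and 5.85 CPM against 0.143 to 0.334 CPM, and Ripk2 had 20.5 ± 1.09 (n = 2) against 3.47 ± 0.526 CPM (SD, n = 3), 5.56-fold higher. Pdlim2, which promotes the degradation of nuclear Rela, had 19.4 ± 1.10 against 1.38 ± 0.219 CPM, 13.2-fold higher. Of the kinases, Map3k8 was 3.78-fold and Tab1 1.54-fold higher. Tnfrsf1a, the main TNF receptor, had 72.1 ± 0.821 against 169 ± 22.2 CPM, 2.48-fold lower, and Tnf was at 0 in both differentiation libraries, at least 4.80-fold lower against the floor of 3 counts per library. Nlrc5 was 2.03-fold lower, and was not called without EtOH replicate 1 of differentiation medium (1.84-fold). The complement gene C3 had 8.62 and 4.82 CPM in differentiation medium and 0, 0.190 and 0.0955 CPM in proliferation medium. From 302 against 6 summed counts, the ratio of its levels was 69.8 (exact 95% interval 31.7 to 192, counting error only), and it was 46.5 without EtOH replicate 1 and 139 without EtOH replicate 2 of proliferation medium. For 4HBP against EtOH in differentiation medium, 0 of the 78 pathway genes tested passed with edgeR and 0 with DESeq2, against 2.55% of all genes with edgeR. An unadjusted p under 0.05 was found for 13 of the 78, close to the 15.9% of all genes.

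For each member, the genes with the most similar log2 CPM over the 11 libraries were listed, as a description. The libraries fall into 2 sets by medium, which all these genes share. The closest were Nsrp1 and Topors for Rela (Pearson r = 0.996 and 0.994), Gars and Ppid for Nfkb2 (both 0.993), Med22 and Stat5b for Nfkbib (both 0.991), Dhrs7 and Calcrl for Nfkbia (0.990 and 0.987) and Bag5 and Gm49369 for Bcl3 (0.986 and 0.985). For Nfkb1, they were Ap5z1 and Dus3l (0.959 and 0.939), for Relb Pisd and Krtcap2 (0.953 and 0.948), and for Rel Stk17b and Nxpe4 (0.945 and 0.873). For Nfkbie and Tnfaip3, they were Trim32 and Tceanc2 (0.924 and 0.922) and Dtnb and Gpr137b-ps (0.910 and 0.891). Of the 45 pairs of members, Rela and Bcl3 (0.98) and Nfkb2 and Rela (0.93) were the most alike, and Nfkbib ran opposite to Rela and Bcl3 (both -0.93).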

How the data were processed

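RNA was sequenced as 11 stranded poly(A) libraries. Per the labels and the study's methods, the authors trimmed reads with cutadapt and quantified them with RSEM 1.3.0 and Bowtie2 2.2.9 on mm10 (GRCm38) with GENCODE genes. The deposited expected counts are not normalized, the TPM deposited by the authors are normalized for length and depth by RSEM, and the deposited gene length is a mean over transcripts. FPKM were not used. Symbols came from GENCODE of the same build (99.82% of identifiers matched).

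After rounding to whole numbers, expected counts were filtered with filterByExpr, normalized by TMM and tested with edgeR 4.0.16 (R 4.3.3, quasi-likelihood, Benjamini-Hochberg adjusted p under 0.05 over all genes). 4HBP was compared with EtOH within each medium, since the spread differed between media, and media were compared in a fit of 11 libraries. The study's rule used limma 3.58.1 on log2(CPM+1). Alternatives were library totals, DESeq2 1.42.0, voom, no filter, a pseudocount of 0.1, another set of libraries fitted, a replicate block and fits without 1 library at a time. The tests were tested on simulated data. Replicate numbers were checked as pairs, and no libraries were duplicates. Intervals are 95% confidence intervals, from the edgeR fits or, for low counts, exact binomial.

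The members and lists were chosen with earlier results of these data known. Pathway genes were named by size of change among those called whose groups did not overlap, up to 4 per list for 4HBP and up to 2 between media, and markers by the highest mean CPM. The 2 genes most like each member were those with the highest Pearson correlation and a mean of at least 5 CPM.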

Additional observations from a re-analysis of the deposited data

How the results depend on the processing

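In proliferation medium, members kept their direction under all alternatives, and the count of 4 members called was 2 with the replicate block and 0 to 2 when a library was left out, in fits with fewer samples. It was 4 or 5 under the other alternatives. The count past the study's thresholds, 3, was 2 with the replicate block and 2 to 5 when a library was left out. In differentiation medium, the count of 0 was 1 (Nfkb1) without the filter and with the replicate block, and 0 to 1 when a library was left out. The difference between media, 0 members, was 1 with DESeq2, 3 without the filter (Nfkb2, Nfkbia and Relb), 2 with voom and 0 to 1 when a library was left out. The cause of these shifts was not tested. Values near 0 changed sign: for 4HBP in differentiation medium, Nfkb2 (0.01) was -0.05 with the replicate block and -0.04 to 0.08 when a library was left out, Relb (0.10) was -0.08 to 0.30 and Nfkbie (0.14) was -0.02 to 0.32. Tnfaip3 between media with EtOH (0.00) was -0.01 without the filter and -0.32 to 0.38 when a library was left out. Over all genes, the 1074 calls in proliferation medium were 1623 with DESeq2, 2668 with all libraries in 1 fit, 534 with the block and 107 to 1429 when a library was left out, and the 395 in differentiation medium were 778 without the filter, 0 in 1 fit (644 at an unadjusted p under 0.05), 745 with the block and 77 to 288. Same-numbered libraries did not deviate together over all genes (correlations from -0.0612 to 0.018). These correlations cannot tell whether same-numbered libraries came from the same culture. Depth limits Bcl3 in differentiation medium (at most 10 counts) and Tnfaip3 (at most 81 counts).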

Other observations

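The mean transcript length that the authors deposited also varied for Bcl3, from 872.61 to 1850 bases among the EtOH libraries of proliferation medium and from 736.5 to 1850 bases in differentiation medium with 4HBP, where counts were low. In EtOH replicate 2 of proliferation medium, Bcl3 had the lowest CPM of its group (1.95) and the highest TPM (3.85), at a length of 872.61 bases. The lengths of Rela (2716 bases), Rel (7466 bases) and Nfkbie (2422 bases) were the same in every library. Relb ranged from 1576.42 to 1895.92 bases with 4HBP and from 1659.81 to 2042.7 bases with EtOH in differentiation medium.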
